A study of Drosophila melanogaster with 2 samples.

Results

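The regions described are summits of Hr51 binding that lie between the start sites of 2 neighbouring protein-coding genes transcribed away from each other. A summit, the base of highest signal in a peak, was kept where a minus-strand start lay to its left and a plus-strand start to its right at a distance of at most 1000 bp between the starts, and each summit was counted once. Of the 7229 summits in the reproducible list, 711 met the rule (9.84%, Wilson 95% interval 9.17 to 10.5). They lay in 699 distinct peak intervals and between the innermost starts of 662 gene pairs. The material was whole embryos of both sexes, aged 14 to 16 h, of the Drosophila melanogaster strain Dhr51-GFP, whose transgene makes Hr51 with GFP fused at its C-terminus. Chromatin sonicated to 200 to 800 bp was immunoprecipitated with an antibody against GFP according to the sample descriptions, while the antibody field names Hr51. The 2 samples formed 1 group and are labelled biological replicates 1 and 3. With 1 group there was no contrast between conditions. No library from flies without the tag was analysed here, so whether signal at these places depends on Hr51 was not tested. The labels do not name what drives the transgene, and signal from a whole embryo cannot be assigned to a cell type.

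Hr51, also called unfulfilled, is an orphan nuclear receptor of the NR2E group, known in the fly for its role in mushroom body neurons and in clock neurons. Neighbouring genes that point away from each other share the DNA between them, so that a protein bound there sits upstream of both. In the fly such gene pairs are frequent among genes that most cells use, and the promoters of these genes often carry the DNA replication-related element (DRE), bound by DREF, or sites of the insulator protein BEAF-32 and of the zinc finger protein M1BP.

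The DNA under the strongest of these summits was mostly A and T, as the following windows show. Each is centred on a summit and holds the 50 bases on either side of it, is read 5′ to 3′ on the plus strand of the Release 6 (dm6) reference genome, and is given with its position. Capitals mark matches on either strand to 8 motifs. They are the DRE, which reads TATCGATA, and its core, ATCGAT. The BEAF-32 core was read as CGATA and the M1BP core as GTCACAC. The TATA box was read as TATAAA and the E-box as CAGCTG. The hexamer that nuclear receptors recognise was read as AGGTCA, and its NR2E variant as AAGTCA. The core ATCGAT lies within TATCGATA, and a match to CGATA is contained in every TATCGATA. The first 5 windows belong to the strongest summits after that of mRpL41/CG8079, with the exception of Art3/mRpS10, which is shown at full length in the next paragraph.
Ugalt/eIF2Bbeta (chrX:2703834-2703934): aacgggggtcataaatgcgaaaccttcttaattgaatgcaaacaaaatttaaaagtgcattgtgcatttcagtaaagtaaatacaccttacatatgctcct
PNPase/Gprk2 (chr3R:31404610-31404710): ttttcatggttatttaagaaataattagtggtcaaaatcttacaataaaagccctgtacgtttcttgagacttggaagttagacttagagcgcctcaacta
Chro/Ssl1 (chr3L:22878858-22878958): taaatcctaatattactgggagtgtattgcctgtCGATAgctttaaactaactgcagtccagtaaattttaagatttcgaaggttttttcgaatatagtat
CG5611/Mtl (chr3R:27636124-27636224): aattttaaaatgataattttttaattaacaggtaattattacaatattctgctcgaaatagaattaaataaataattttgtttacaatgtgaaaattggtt
CG11309/CG7632 (chr3L:21304513-21304613): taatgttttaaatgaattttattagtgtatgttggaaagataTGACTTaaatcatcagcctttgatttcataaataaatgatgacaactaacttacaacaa
The next 2 are the strongest summit windows with a TATA box match and with a DRE core match.
eIF4EHP/CG18428 (chr3R:24109152-24109252): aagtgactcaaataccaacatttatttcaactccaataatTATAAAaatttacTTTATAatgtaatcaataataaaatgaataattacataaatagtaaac
p38a/CG6178 (chr3R:24152047-24152147): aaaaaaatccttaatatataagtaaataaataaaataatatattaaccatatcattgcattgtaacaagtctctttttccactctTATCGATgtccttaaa
The last 2 are the strongest windows with a full DRE and with an E-box. Both lie beside a gene for a protein of the cytoplasmic ribosome and are richer in G and C.
RpS25/CG4820 (chr3R:11216312-11216412): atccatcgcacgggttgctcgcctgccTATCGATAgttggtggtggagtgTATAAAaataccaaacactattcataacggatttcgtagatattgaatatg
RpS27/Nup37 (chr3R:25247464-25247564): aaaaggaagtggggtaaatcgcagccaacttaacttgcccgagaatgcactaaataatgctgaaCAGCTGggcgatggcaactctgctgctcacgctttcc
GC content was 16.8% in the CG5611/Mtl window and 17.8% in that of eIF4EHP/CG18428. It was 41.6% in the RpS25/CG4820 window and 49.5% in the RpS27/Nup37 window.

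The following 2 sequences run from one start to the other, so the first base is the minus-strand start and the last base the plus-strand start. They show how the marked motifs were placed around the summit, which is base 129 of the Art3/mRpS10 sequence and base 90 of the CG13390/CG17294 sequence.
Art3/mRpS10 (chr3R:15229408-15229665): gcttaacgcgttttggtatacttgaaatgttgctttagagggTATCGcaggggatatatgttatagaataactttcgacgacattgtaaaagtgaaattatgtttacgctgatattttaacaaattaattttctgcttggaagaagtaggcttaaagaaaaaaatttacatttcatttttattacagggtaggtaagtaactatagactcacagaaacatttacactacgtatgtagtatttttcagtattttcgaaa
CG13390/CG17294 (chr2L:8376797-8377035): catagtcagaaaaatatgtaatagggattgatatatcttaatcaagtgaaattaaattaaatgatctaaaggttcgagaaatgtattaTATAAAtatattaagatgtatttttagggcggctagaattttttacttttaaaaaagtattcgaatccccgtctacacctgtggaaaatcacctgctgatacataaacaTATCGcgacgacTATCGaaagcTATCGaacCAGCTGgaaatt
In the first the BEAF-32 core lay on the minus-strand side of the summit. In the second 3 copies of it and the E-box lay within the last bases before the plus-strand start, while the TATA box match lay beside the summit.

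Divergent gene pairs were common in the annotation and a minority of them held a summit. Of 13945 protein-coding genes, 5052 (36.2%) took part in 2667 divergent pairs with starts at most 1000 bp apart. A reproducible summit lay between the starts of 732 of these pairs, or 27.4% (25.8 to 29.2). Counted by gene, 1373 of the 5052 belonged to such a pair, or 27.2%. For comparison, 3247 of all 13945 protein-coding genes, or 23.3%, had a summit within 1000 bp of any start. In the longer lists, which held 30000 peaks each, 1048 pairs (39.3%) held a replicate 1 summit and 1139 pairs (42.7%) a replicate 3 summit. No summit of any list lay in 1354 pairs (50.8%). Of the 1935 pairs without a reproducible summit, 217 (11.2%) held a summit in the list of each replicate.

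The share of pairs that held a summit differed with the distance between their closest starts. It was 3.5% for the 429 pairs with starts up to 100 bp apart and 9.8% for the 357 pairs above that and up to 200 bp. It was 31.7% of 542 pairs up to 300 bp, 36% of 400 pairs up to 400 bp and 30.7% of 267 pairs up to 500 bp, each class starting where the one before it ended. Beyond that it was 20.9% of 422 pairs up to 750 bp and 24.8% of 250 pairs up to 1000 bp. Pairs over 200 and up to 500 bp apart thus held summits more often than closer pairs, by intervals that do not overlap. A shorter stretch between starts also offers fewer bases for a summit to fall on. These shares use the closest starts of each pair, between which 598 pairs held a summit, whereas the 732 pairs above count any of their starts. The limit of the rule cut through a continuous range of distances. The last members inside the limit were Gnpat/CG5112 at 994 bp, CG32767/CG15465 at 991 bp and ND-75/CG1632 at 983 bp, with signals of 259, 185 and 189. The nearest summits outside were raptor/Nep1 at 1004 bp, RpS7/Anp at 1006 bp and Eno/Rrp40 at 1015 bp, with signals of 189, 312 and 2025.

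Gaps between divergent neighbours held summits more often than gaps of the same length between genes in other orders. Among gaps of over 200 and up to 500 bp between the outer ends of neighbouring genes, a summit lay in 332 of 1013 divergent gaps (32.8%, 29.95 to 35.7). The count was 145 of 1359 tandem gaps (10.7%, 9.14 to 12.4), which separate genes on the same strand, and 6 of 254 convergent gaps (2.36%, 1.09 to 5.06), which hold no start. A divergent gap has 2 starts and a tandem gap 1. Per 100 starts there were 17.1 summits in the divergent gaps and 10.8 in the tandem gaps, so the difference per start was smaller than per gap. Over all gaps up to 1000 bp the density was 0.697 summits per kb in divergent, 0.242 in tandem and 0.0415 in convergent gaps.

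**Figure D1:**
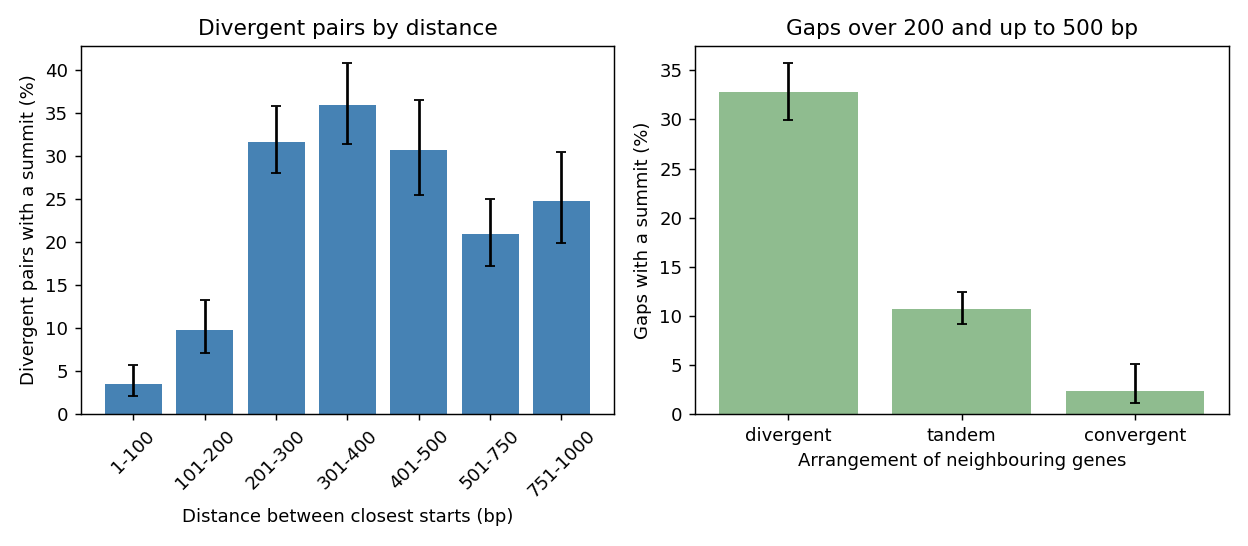
Left, percent of divergent pairs with a reproducible summit between their closest starts, by the distance between those starts. Right, percent of gaps of over 200 and up to 500 bp with a summit, by the arrangement of the neighbouring genes. Bars are shares and error bars are Wilson 95% intervals, which cover counting error only. The share was 3.5% up to 100 bp and 36% over 300 and up to 400 bp, and it was 32.8% in divergent against 10.7% in tandem gaps.

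By the rule, every member summit lay upstream of both flanking starts. The spacing from the nearer start grew less than the gap did. The distance from summit to the nearer start had a median of 123 bp (quartiles 91 and 164), and 438 of the 711 (61.6%) lay between 76 and 175 bp from it. The farther start was a median of 238 bp away (162 to 368). The nearer start was on the minus strand for 344 summits and on the plus strand for 364, with 3 at equal distance. Where the starts were at most 300 bp apart, 196 of 244 summits (80.3%) lay within 50 bp of the midpoint. Where they were over 500 bp apart, 27 of 206 (13.1%) lay that close to the midpoint and 122 (59.2%) lay within 200 bp of a start. A longer gap has a smaller part of its bases within 50 bp of the midpoint, and much of such a gap lies within 200 bp of a start. An even placement of summits was not computed, so these shares show no preference for the midpoint or the starts. The median distance to the nearer start was 102 bp for starts over 200 and up to 300 bp apart, 154 bp for those over 400 and up to 500 bp apart and 162 bp for those over 750 bp apart. A summit cannot lie farther from the nearer start than the midpoint, which bounds these values at short distances. All these distances are to the innermost starts that flank the summit. Genes with several starts can have another one nearer by, on the far side of the summit, and 81 members (11.4%) had a coding start closer than the flanking ones. To the nearest start of any kind the median distance was 116 bp, and 117 members (16.5%) lay within 50 bp of one.

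**Figure D2:**
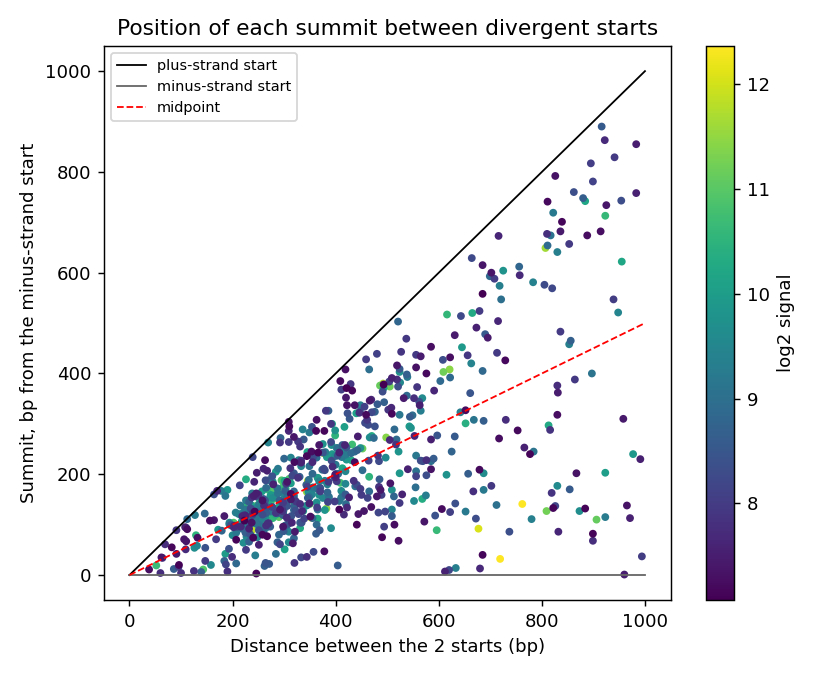
Each point is 1 of the 711 summits. The horizontal axis is the distance between the 2 innermost starts in bp and the vertical axis the distance of the summit from the minus-strand start in bp, with colour showing log2 of the reproducible signal. Points lie near the dashed midpoint line up to about 300 bp, where the gap leaves little room. They spread more widely between the starts beyond 500 bp, where 13.1% lay within 50 bp of the midpoint.

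Most of the summits fell outside exons, a result that the rule partly fixes. A summit between the flanking starts cannot lie in an exon of a transcript that begins at either of them. Only exons of other transcripts or genes could hold it, and the share for other summits of the list is not given here. By the annotation, 602 of the 711 lay in no exon, 8 in an exon of a noncoding gene and the rest in an exon of a protein-coding gene, with 1 in coding sequence. The peak intervals were wider than many gaps, with a median width of 377 bp (102 to 835). Of the 711 intervals, 242 reached past both starts, 274 past 1 start, and 195 stayed between them. The summit, not the interval, is therefore what places these peaks.

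The authors' signal, which has no stated scale, had a higher median at member summits than at the other summits of the same list. The median was 392 (quartiles 222 and 719.63, range 135 to 5263) for members and 261 for the 6518 other summits. The 905 summits within 300 bp upstream of a start but not between divergent starts had a median of 338, and the 4156 summits farther than 1000 bp from any start had 243. Members made up 23 of the top 100 summits (23%, 15.8 to 32.2), 172 of the top 1000 (17.2%, 15 to 19.7) and 9.84% of all. Of the other upstream summits, 25.9% were in the top 1000, beside 24.2% of members, so high rank was not particular to the divergent arrangement. The median by distance between starts was 217 up to 100 bp, 581 over 200 and up to 300 bp and 259.55 over 750 bp.

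The 3 strongest members lay in long gaps, close to a start. At mRpL41/CG8079 on arm 2R, beside a gene for a mitochondrial ribosomal protein, the signal was 1704 in replicate 1, 3574 in replicate 3 and 5263 in the reproducible list. At Ugalt/eIF2Bbeta, between genes for a UDP-galactose transporter and a subunit of the exchange factor of eIF2, it was 2154, 3099 and 5238. At PNPase/Gprk2, between genes for a mitochondrial polynucleotide phosphorylase and a kinase of G protein-coupled receptors, it was 1862, 2450 and 4289. In each of them replicate 3 was the higher, the starts were far apart (762, 719 and 677 bp) and the summit lay near 1 of them, at 141 bp from mRpL41, 32 bp from Ugalt and 92 bp from PNPase.

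The next 7 had gaps of 230 to 492 bp. At Art3/mRpS10, genes for an arginine methyltransferase and a mitochondrial ribosomal protein, the signal was 1383 in replicate 1 and 2682 in replicate 3, and the summit lay 128 bp from 1 start and 129 bp from the other. At Chro/Ssl1 it was 1510 and 2399, with starts 321 bp apart. Chro codes for Chromator, a protein of chromosome interbands, and Ssl1 for a subunit of the general transcription factor TFIIH. At CG5611/Mtl the values were 1312 and 2535. CG11309/CG7632 had 1589 and 2191, with the summit 96 bp from a start in a gap of 230 bp. At eIF4EHP/CG18428 the signal was 1434 and 2315. eIF4EHP encodes a cap-binding protein that represses translation. CG13390/CG17294 followed with 1419 and 2243, and mRpS23/CenG1A with 1420 and 1988. The mRpS23/CenG1A summit lay 112 bp from CenG1A and 380 bp from mRpS23.

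The remaining 10 of the 20 strongest had reproducible signals from 3331 down to 2517. They were Pdrg1/Pal1, Tcs5/CHMP2B, CG32243/CG11357, CG1602/PIG-G, p38a/CG6178, Lon/PIG-F, Acbp1/Piezo, Pax/Alp12, mRpL23/CG9004 and Hrd3/PTPMT1. Among them are genes for a subunit of the KEOPS complex (Tcs5), an ESCRT-III protein (CHMP2B), a stress-activated kinase (p38a), a mitochondrial protease (Lon), a mechanically gated channel (Piezo) and a part of the ubiquitin ligase of the endoplasmic reticulum (Hrd3). At Acbp1/Piezo replicate 1 was the higher, at 1533 against 1219 in replicate 3. In the other 19 replicate 3 was the higher. All 20 ranked within the first 146 peaks of replicate 1 and the first 127 of replicate 3. Those ranks are partly fixed, since the 20 were chosen by a reproducible signal close to the sum of both replicate signals. The distances of the 20 summits to the nearer start ran from 32 to 225 bp with a median of 130. Their GC content ran from 16.8% to 33.7% with a median of 24.8%.

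Summits in very short gaps were few. The closest starts around a member were those of CG4291 and kraken, 38 bp apart, with a reproducible signal of 152. The strongest member with starts up to 100 bp apart was CG32022/CG6511, at 52 bp, with 569 in replicate 1 and 1047 in replicate 3. Among starts over 100 and up to 200 bp apart it was Mnat9/CG1792, at 143 bp, with 714 and 1199. In gaps this short the fragments of 200 to 800 bp reach beyond both starts.

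Some gaps held 2 summits. There were 49 gene pairs with 2 member summits, the most in any pair, and in 37 of them both summits lay between the same 2 starts. In 33 of these 37 the summits were nearer to different genes. The starts were a median of 556 bp apart and never under 292 bp. The summits were a median of 203 bp apart and never under 199 bp, and in 10 of the 37 pairs both lay in 1 peak interval. At that spacing 2 summits in a short gap cannot both be nearer to the same gene, so the count of 33 is partly fixed. Whether the 2 summits of a pair are separate binding sites was not tested. At Ac78C/chb, genes for an adenylyl cyclase and a microtubule-associated protein, starts 923 bp apart held summits of 607, lying 115 bp from Ac78C, and 1576, lying 210 bp from chb. At CG15019/TP53INP, with starts 884 bp apart, the summits had signals of 139.83 and 1184 and lay 610 bp apart. At SMC6/CG6204 they had 1722 and 149. A summit can also lie between several overlapping pairs, as did 48 members, with a highest number of 21 gene pairs around 1 summit in the pre-mod(mdg4) cluster.

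The replicates placed nearly all of these summits in the same gap. The summits come from a list drawn from both replicates and selected for peaks that reproduce between them. High overlap and correlation between the replicates are therefore partly fixed by that selection. The same values for the other summits of the list are not given here. Of the 711, 694 (97.6%) overlapped a replicate 1 peak, 702 (98.7%) a replicate 3 peak and 686 (96.5%) a peak in both. In 647 (91%, 88.7 to 92.9) the nearest replicate summits both lay between the same starts. The 2 replicate summits were within 50 bp of each other in 515 of the 686 (75.1%) and within 100 bp in 632 (92.1%). Signal in replicate 3 was a median of 1.46 times that in replicate 1 (quartiles 1.2 and 1.75), and 86 members had the higher value in replicate 1. Across the 686 members log2 signal had a Pearson correlation of 0.894 and a Spearman correlation of 0.889, a description over sites that share the same libraries. The reproducible signal was a median of 0.997 times the sum of both replicate signals, with quartiles of 0.982 and 1.01. It is therefore close to a sum and no separate measurement.

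**Figure D3:**
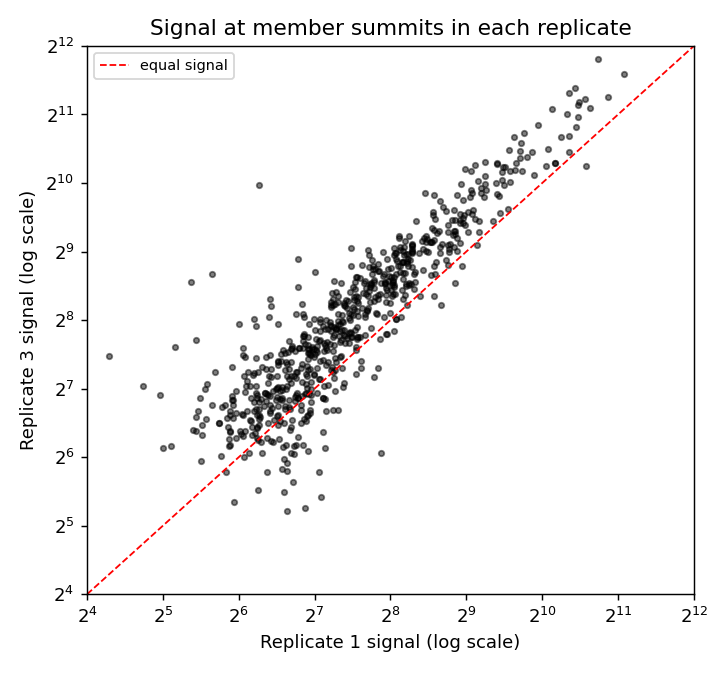
Signal at the 686 members with a peak in both replicates, replicate 1 on the horizontal and replicate 3 on the vertical axis, both on a log scale, with a dashed line at equal signal. Most points lie above the line, by a median ratio of 1.46, and 86 lie below it.

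The exceptions were few but not all weak. In the replicate 1 list 17 members had no overlapping peak, and in the replicate 3 list 9, with CG31917/SelT in neither. U2af50/PIG-Q, beside the gene for the large subunit of the splicing factor U2AF, had 752 in replicate 3 and 1218 in the reproducible list, and the nearest replicate 1 summit was 23855 bp away. wda/Pex11c had 686 and 1046, with the nearest replicate 1 summit at 6760 bp. In both the reproducible signal was well above that of replicate 3 alone. Phf5a/CG31638 had 197 in replicate 1 and 507 in the reproducible list, with no replicate 3 summit nearer than 1882 bp. In 8 members the nearest replicate 3 summit had over 4 times the signal of the nearest replicate 1 summit. In 2 of them, the weaker summits of SMC6/CG6204 and CG14757/LRP1, the replicate 3 value of 1003 or 475 is also that of the stronger summit of the same pair, so it does not measure a difference at the weaker one. GluProRS/AP-1sigma, for example, had 49.9 in replicate 1 and 408 in replicate 3, but the nearest replicate 1 summit lay 194 bp from the member summit. Why these peaks differ between the lists was not tested.

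The base composition around the summits had a broad minimum. With the nearer start placed to the right, mean GC in bins of 20 bp was 28.2% just left of the summit and 29.7% just right of it, and it was lowest at 50 bp to the left, at 27.8%. It rose to 41.7% at 110 bp on the side of the nearer start and to 49.1% at 330 bp, and to 37.3% at 170 bp and 44.6% at 390 bp on the other side. In windows of 50 bases on either side of the summits the median GC was 27.7% for members and 29.7% for all summits of the list. For the summits upstream of a start but not between divergent starts it was 29.7%, so low GC was not particular to members. Among members, stronger summits had lower GC. The median was 24.8% for the 100 strongest, 25.7% for the next 200, 27.7% for the 200 after those and 31.7% for the weakest 211. The Spearman correlation of signal and GC was -0.293 over the 711 members and -0.213 over the other summits of the list, over sites that share libraries.

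The low-GC stretch was there with or without a summit. In the 451 members with starts over 200 and up to 500 bp apart, the summit was a median of 38 bp from the window of lowest GC between the starts. The midpoint of the same starts was a median of 29.3 bp from it, so summits lay no closer to the low-GC window than midpoints did. The median GC was 25.7% at these summits and 25.7% at the midpoints of the same gaps. At the midpoints of the 785 pairs of that length with no summit it was 27.7%. Between the starts as a whole, GC had a median of 33.3% in the 398 pairs of that length with a summit and 33.5% in the 785 without.

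Motifs of housekeeping promoters flanked the summits. The DRE core, ATCGAT, was found in 6.33% of the 711 windows (4.76 to 8.36), against 2.92% of the 6518 windows at other summits and 5.97% of the 905 at other upstream summits. At the midpoints of the 1935 divergent pairs without a summit it was 14.2% (12.7 to 15.8). The BEAF-32 core, CGATA, was in 16.9% of member windows, 10.2% of the others and 25.9% of those midpoints. The full DRE, TATCGATA, was in 2.25%, 0.506% and 5.74%, and the M1BP core, GTCACAC, in 1.55%, 0.706% and 3.88%. With replicate 3 left out, the full DRE was in 4.25% of the member windows (31 of 730). Each of these 4 motifs was thus more frequent in member windows than at other summits. Each was less frequent than at the midpoints of all 1935 pairs without a summit, which were not matched to members in length. At the 905 other upstream summits the BEAF-32 core was in 15.4%, the full DRE in 2.43% and the M1BP core in 1.22%. The higher shares were therefore not particular to members. For the M1BP core the intervals of members (0.866 to 2.75) and other summits (0.53 to 0.94) overlapped. The midpoint windows include gaps shorter than the window, where the window reaches into both genes. They also include gaps up to 200 bp, which seldom held a summit. Read over whole stretches of over 200 and up to 500 bp, the full DRE ran the other way. It was in 20.9% of pairs with a summit and 18% of those without. The DRE, BEAF-32 and M1BP cores stayed lower with a summit, as the next paragraph gives. For each motif the intervals overlap.

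The place of the motifs differed between the summit and its flanks. Matches to the DRE core numbered 3.38 and 3.52 per 100 members in the 50-bp bins on either side of the summit. They numbered 10.3 in the bin centred 75 bp away towards the nearer start and 8.72 in the bin centred 125 bp away on the other side. The BEAF-32 core had 13.9 matches per 100 members beside the summit and 29.96 at 75 bp on the side of the nearer start. On the other side it had 10.5 beside the summit, 14.3 at 75 bp and 24.6 at 125 bp. The E-box, CAGCTG, had 1.83 beside the summit and 9 at 125 bp on the side of the nearer start, and 1.69 and 7.59 on the other side. The TATA box sequence, TATAAA, ran the other way, with 21 beside the summit and 12.5 at 75 bp on the side of the nearer start, and 26.3 and 19.7 on the other side. Read over the whole stretch between starts over 200 and up to 500 bp apart, the DRE core was in 36.4% of the 398 pairs with a summit and 43.3% of the 785 without, with intervals of 31.9 to 41.3 and 39.9 to 46.8. The full DRE was in 20.9% (17.2 to 25.1) and 18% (15.4 to 20.8). The E-box was in 22.9% (19 to 27.2) and 16.7% (14.2 to 19.5). For each of these motifs the 2 intervals overlap. The BEAF-32 core was in 62.3% and 65.6% and the M1BP core in 11.1% and 11.8%, with intervals that overlap.

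**Figure D4:**
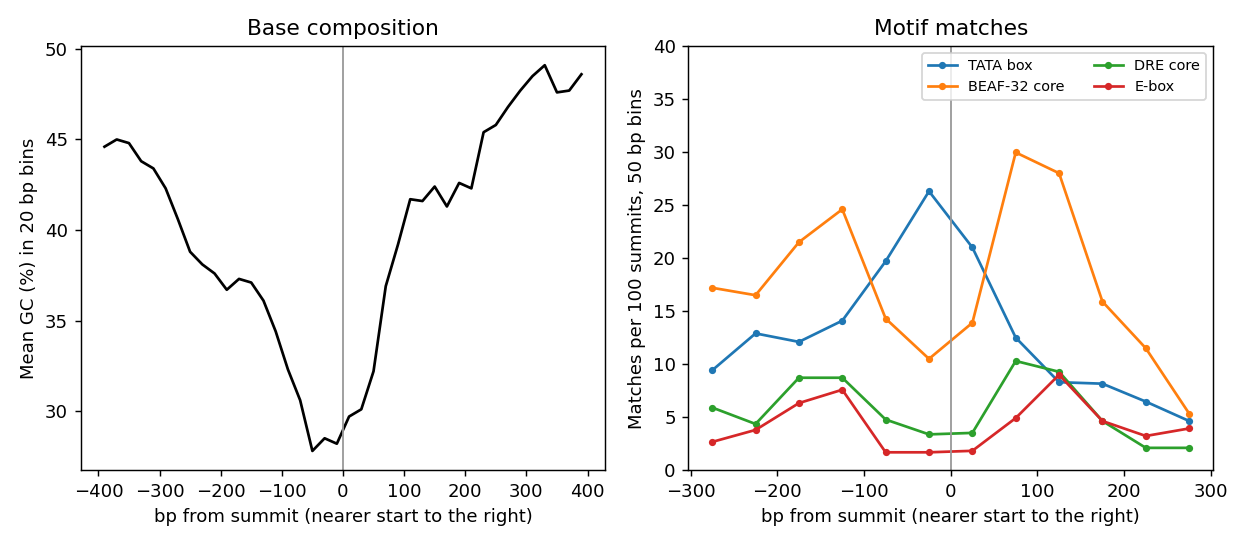
Left, mean GC in 20-bp bins around the 711 summits. Right, motif matches per 100 summits in 50-bp bins. The horizontal axes give bp from the summit, with the nearer start to the right. GC has a broad low around the summit with its lowest bin, 27.8%, at 50 bp on the far side. DRE core, BEAF-32 core and E-box matches are highest 50 to 200 bp from it, and TATA box matches are highest beside it, at 26.3 per 100.

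The TATA box letters followed the base composition. TATAAA was in 32.8% of member windows (29.4 to 36.3), 26% of other summit windows and 20.5% of midpoint windows. The midpoints were those of all pairs without a summit, which were not matched to members in length. TATAAA was also read over whole stretches between starts, in the length range used above for the other motifs. There it was in 58.5% of the 398 pairs with a summit (53.6 to 63.3). In the 785 pairs without one it was in 58% (54.5 to 61.4), so the shares of these pairs hardly differed. With each sequence counted together with its reverse complement, there are 36 sequences of 6 bases made of A and T alone. Of these, 35 were more frequent in member windows than in other summit windows. The difference for TATAAA was 6.75 percentage points, the median over the 36 was 6.59, and 16 of them had a larger one.

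The sequences of nuclear receptors were no more frequent in member windows. AGGTCA was in 1.97% of them (1.18 to 3.28) and 2.16% of the others. AAGTCA was in 5.06% (3.68 to 6.93), 6.01% and, at midpoints of pairs without a summit, 5.63%. Among the 100 strongest members 3 windows held AAGTCA and 2 held AGGTCA. A further 6 sequences were searched. GAGAG, the core of GAGA factor sites, was in 5.49% of member windows and 8.61% of the others, and TGANTCA, the AP-1 site, in 1.55% and 2.85%. The interval of members for GAGAG, 4.04 to 7.41, lay below that of the others, 7.95 to 9.31, and for TGANTCA the intervals overlapped. The core of the initiator, TCAGT, was in 15.5% of member windows and 16.8% of the others. A site of GATA factors, GATAAG, was in 4.78% and 5.05%. The Zelda site, CAGGTA, was in 1.69% and 1.61%. CACACA was in 4.22% and 5.71%. A match is only a match of letters, and a window without one says nothing of binding by other sequences.

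Weak and strong members differed in these features. The DRE core was in 2% of the 100 strongest windows, 3% of the next 200, 6.5% of the 200 after those and 11.4% of the weakest 211. The BEAF-32 core went from 8% to 12.5%, 17.5% and 24.6% over the same classes. The 45 members with a DRE core had a median signal of 238, against 402 for the 666 without. Their summits were also nearer to a start, at a median of 66 bp against 124 bp. The share with both replicate summits between the same starts fell from 98% in the 100 strongest to 85.8% in the weakest 211.

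Genes for proteins of the cytoplasmic ribosome had the highest share of the 21 gene lists. Of 85 genes on that list, 52 were in divergent pairs, and 35 of these were in a pair with a summit (67.3%, 53.8 to 78.5), beside 27.2% of all genes in divergent pairs. With only the outermost start of each gene counted, it was 23 of 51 (45.1%). The strongest was RpL34b/CG8132, with 484 in replicate 1 and 685 in replicate 3. RpS27/Nup37 had 322 and 694. RpS13/CSN8, the weakest, had 66.6 and 98.1. All 35 had a peak in both replicates, and the median reproducible signal was 446, near the 392 of all members.

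The summits at ribosomal protein genes differed in place and composition from those of other members. They lay a median of 69 bp from the start of the ribosomal protein gene, with a range of 3 to 746 bp, and 25 of the 35 lay within 100 bp of it. The ribosomal protein gene was the nearer of the 2 genes in 28 of 35. Their windows had a median GC of 44.6%, against 27.7% for all members. Mean GC around all members also rose towards the nearer start, and place and composition were not separated here. At RpL14, 8 bp from the summit, the signal was 243 in replicate 1 and 373 in replicate 3. At RpL36A it was 89.9 and 127 with the summit at 7 bp, and at RpS13 the summit was 3 bp from the start. Pairs with a ribosomal protein gene held 40 member summits in all, of which 18 (45%) lay within 50 bp of the nearest coding start of any kind, beside 16.5% of all members. The values at mitochondrial ribosomal protein genes were unlike these. Of 58 such genes in divergent pairs 21 (36.2%, 25.1 to 49.1) had a summit in the pair. The summits lay a median of 155 bp from the gene's start, 1 of 21 within 100 bp, with a median GC of 24.8%. The mitochondrial ribosomal protein gene was the nearer gene in 9 of 21. Of 26 translation initiation and elongation factor genes in divergent pairs, 8 (30.8%) had a summit in the pair. These summits lay a median of 78.5 bp from the gene's start, with a median GC of 35.6%. To the nearer of the 2 starts the median was 52.5 bp, beside 60 bp for the cytoplasmic ribosomal protein genes.

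Most other lists of genes that all cells use were close to the background of 27.2%. The counts were 14 of 43 for the respiratory chain and ATP synthase (32.6%), 8 of 23 for aminoacyl-tRNA synthetases (34.8%), 7 of 19 for RNA polymerase subunits (36.8%), 6 of 19 for Mediator (31.6%), 6 of 22 for the proteasome (27.3%) and 6 of 26 for spliceosome proteins (23.1%). Their intervals all contained 27.2%. The same held for TFIID (3 of 11), Rab GTPases, a list that also took in Rab3GAP1 (5 of 19), V-ATPase (3 of 14), chaperonins and heat shock proteins (3 of 15), nuclear pore proteins (3 of 18) and DNA replication (1 of 14). The strongest summits of the first 6 were at ND-ASHI/Fum1 (895), Hem/IleRS (1277), CG10584/Polr3E (1447), CG4297/MED15 (1224), l(2)37Bb/Rpn3 (629.98) and U2af50/PIG-Q (1218). In the other 6 they were at Taf5/Pex6 (1177), Rab3GAP1/CG14352 (643), Vha100-2/Vti1b (187), Hsc70-5/CG8531 (1069), RpS27/Nup37 (1003) and PCNA2/CG10366 (261).

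Genes for sensory receptors, cuticle and neurons were less often in divergent pairs than all protein-coding genes, of which 36.2% were. Of 179 chemoreceptor genes 26 were in such pairs, and of 121 cuticle protein genes 13. None of these 26 chemoreceptor genes had a summit in the pair (upper Wilson limit 12.9%), nor did any of the 13 cuticle protein genes (22.8%), beside 27.2% of all genes in divergent pairs. Of the 52 neuron and axon genes on the list 4 were in divergent pairs, and 1 of these, trio/CG9205, held a summit, with 31.1 in replicate 1 and 120.16 in replicate 3. It lay 15 bp from CG9205 and 295 bp from trio. Of 18 circadian clock genes 3 were in divergent pairs and mts, a catalytic subunit of protein phosphatase 2A, was in a pair with a summit, which lay 19 bp from its neighbour Rack1 and 385 bp from mts. The shares of 25% for neuron and axon genes and 33.3% for clock genes were near the 27.2% of all genes and rest on few genes.

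Genes for nuclear receptors and for insulator proteins were themselves among the pairs. Of 5 nuclear receptor genes in divergent pairs, 3 were in a pair with a summit (60%, 23.1 to 88.2), beside 27.2% of all genes in divergent pairs, a share that the interval contains. They were Hr96, a receptor of xenobiotic and lipid metabolism, with 348 in replicate 1 and 588 in replicate 3, ERR, the estrogen-related receptor, with 202 and 379, and usp, the partner of the ecdysone receptor, with 119 and 161. Replicate 3 was the higher at each. The Hr96 summit lay 111 bp from Hr96 and 107 bp from its neighbour EMC6. The ERR summit lay 157 bp from ERR and 29 bp from its neighbour Atg18a, and the replicate 1 summit there was not between the starts. The summit of usp lay 196 bp from usp, the nearer gene. Of 9 insulator and promoter architecture genes 4 were in a pair with a summit (44.4%, 18.9 to 73.3), an interval that also contains 27.2%. Cp190, which encodes a cofactor of insulator proteins, had 837 and 1315. M1BP had 565 and 547. For both of these the neighbour was the nearer gene, with the summit 129 bp from CG4338 and 93 bp from CG8202. The gene pzg, which encodes Z4, a partner of Chromator, was the nearer gene and had 178 and 529. Chro, given above, was the strongest of them.

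**Figure D5:**
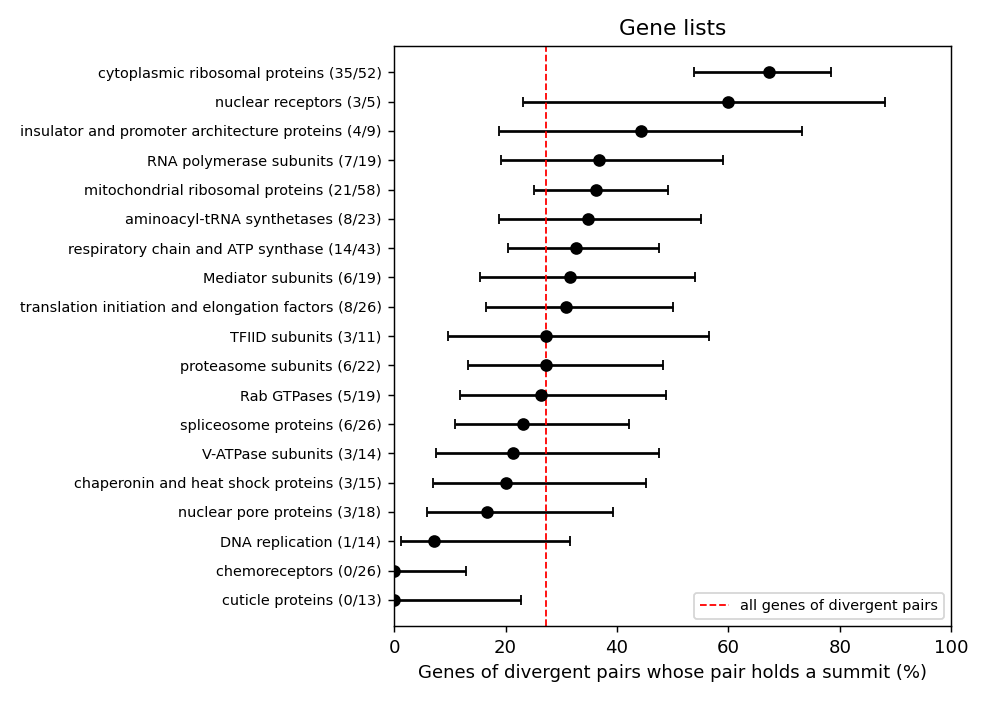
Percent of the genes in divergent pairs whose pair held a reproducible summit, for the lists with at least 5 such genes, with Wilson 95% intervals. The counts stand beside each list, and the dashed line is the 27.2% of all 5052 genes in divergent pairs. The interval of cytoplasmic ribosomal proteins, 53.8 to 78.5, lies wholly above the line, and those of chemoreceptors and cuticle proteins wholly below it.

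The pairs with a summit were spread over the large chromosome arms. The share of pairs with a summit was 26.1% on 2L, 22.7% on 2R, 34.2% on 3L, 29.3% on 3R and 24.6% on X, and 0 of 11 pairs on chromosome 4 held one. The interval of 3L, 30.2 to 38.4, does not overlap those of 2L (22.5 to 30.1), 2R (19.3 to 26.4) or X (20.6 to 29). The median signal of members was 462 on 2L, 394 on 2R, 421 on 3L and 388 on 3R, and 277 on X, the lowest. Of the 732 pairs with a summit, 140 had at least 1 gene on a list above, 3 had both genes on a list, and in 93 both genes were named by a CG number alone.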

How the data were processed

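The 2 samples are biological replicates 1 and 3 of 1 group, per the labels. Each had a deposited list of 30000 peaks on dm6, and the authors also deposited a pooled list of 30000 peaks and a list of 7229 peaks that passed an irreproducible discovery rate threshold, here the reproducible list. The lists derive from the alignments and a control library, per the deposited README files. Tools for alignment and peak calling are not given in the sources used here. Deposited signal per peak has no stated scale and serves only to order and describe peaks of the same list. The deposited −log10 q-value was not used. The depth of the libraries is unknown. No column of per-sample values was without a sample (0 columns).

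Starts were those of coding transcripts in Ensembl release 115 (19607 starts), and sequences came from the Release 6 reference genome. Summits were assigned to the innermost flanking starts, and a peak overlapped another by at least 1 bp. A pair held a summit where one lay between any of its qualifying starts. Motifs were searched on both strands in windows of 50 bp on each side of a summit. Wilson 95% intervals cover counting error only, treat sites as independent, and are no test. No p-value was computed, since 1 group has no contrast. The assignment was tested on simulated starts and summits. Python 3.11.15, pandas 2.3.3, numpy 2.4.6, scipy 1.17.1 and matplotlib 3.10.9 were used. Members and gene lists were chosen with earlier results of these data known, which included promoter binding at ribosomal protein genes, so the lists are descriptions. Pairs named are the 20 strongest members, those beside the 1000 bp limit, those with the most summits, the strongest in each gene list and in each class of distance, and the closest starts. Others named, among them the weaker ribosomal protein, nuclear receptor and insulator genes and the members that differed between replicates, were picked after their values were seen. Sequences from arm 2R were left out.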

Additional observations from a re-analysis of the deposited data

How the results depend on the processing

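The share of reproducible summits between divergent starts, 9.84%, was 7.36% with only the outermost start of each gene, 6.99% with a limit of 500 bp and 12.9% in the 3615 strongest summits, and 10.1% to 11.1% with 1 replicate left out (the 7229 strongest peaks of the other). The share of pairs with a summit, 27.4%, was 22.7%, 26.9% and 19.2% under the same 3 settings, 27% to 31.4% with 1 replicate left out, and 26.8% with overlapping pairs merged, a setting chosen after seeing the data. The ratio of the member median signal to that of the whole list, 1.45, was 1.23 in the 3615 strongest, and 1.21 without replicate 3 and 1.47 without replicate 1. The median distance to the nearer start, 123 bp, was 112 bp with a limit of 500 bp, 126 bp in the strongest 3615 and 120.50 to 122 bp with 1 replicate left out. The share of ribosomal protein genes, 67.3%, was 45.1% with the outermost start, 51.9% in the 3615 strongest, and 63.5% to 76.9% with 1 replicate left out. Median GC, 27.7%, was 26.7% with the outermost start, with a 500 bp limit and with the strongest summit of each interval, 25.7% in the 3615 strongest, 30.8% in windows of 100 bp on each side, and 27.7% to 28.7% with 1 replicate left out. DRE core matches, 6.33%, were in 3.85% of the 3615 strongest list's members and 16.9% of the wider windows, with 6.72% to 8.08% when 1 replicate was left out. TATA box matches, 32.8%, were in 49.6% of the wider windows, and in 30.8% to 31.2% with 1 replicate left out. Both replicate summits lay between the same starts in 91%, in 85% with at least 50% of the interval overlapped, and in 93.4% of the stronger list. Of 84 values for the other 12 motifs, 17 moved beyond the interval of the reported share, 12 of them with the wider window; the full DRE, 2.25%, was 4.25% without replicate 3 and 2.24% without replicate 1. The settings for ribosomal protein genes and GC were added after seeing the data. The causes of these shifts were not tested, apart from the wider windows holding more bases. No paired analysis was possible because there is 1 group. Depth is unknown, so absence from a list is not absence of binding.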

Other observations

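Several lists had promoter summits outside divergent gaps. Of the 52 neuron and axon genes 23 had a reproducible summit within 1000 bp of a start, while 1 was in a divergent pair with a summit. The counts were 9 of 18 for circadian clock genes and 11 of 21 for nuclear receptor genes, of which 1 and 3 were in a divergent pair with a summit. Of the 85 cytoplasmic ribosomal protein genes 61 had a summit within 1000 bp, and 35 were in a divergent pair with one. Across all protein-coding genes the share with a summit within 1000 bp was 23.3%. An unbroken run of at least 20 A or T bases was found in 78 of the 711 member windows (11%) and in 533 of the 6518 other windows (8.18%).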
